A study of Canis lupus familiaris with 34 samples.

Results

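The comparison set 6 cell lines from primary canine osteosarcomas whose dogs had a survival label of 12 or more against 5 lines whose dogs had a label below 12. All 11 dogs carried the treatment label SOC with no added remark, and these 11 arrays were chosen from the 34 arrays of the study by those labels alone. The study measured transcripts on Affymetrix Canine_2 arrays in osteosarcoma lines and snap-frozen osteosarcoma tissue from 31 dogs. The sources used here do not say what SOC stands for, in which unit survival and age are given, or whether a survival value ended in death or was censored.

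The long survival lines had labels of 13.12 (line 1), 64.01 (line 2), 13.97 (line 3), 20.61 (line 4), 38.96 (line 5) and 16 (line 6). The short survival lines had labels of 4.04 (line 1), 10.52 (line 2), 11.01 (line 3), 4.96 (line 4) and 7.66 (line 5). The values just inside the limit of 12 were 13.12 and 13.97, and those just outside it were 11.01 and 10.52, so 4 of the 11 dogs lay within a narrow band around the limit. Long lines came from 3 Golden Retrievers, 2 Rottweilers and 1 German Shepherd. Short lines came from 2 Rottweilers and 1 dog each of Golden Retriever, Great Pyrenees and Mastiff. Sex was uneven, with 4 males and 2 females among the long lines and 1 male and 4 females among the short lines. Age at diagnosis was 8.97 ± 1.43 (SD, n = 6) in the long group and 7.96 ± 1.46 (n = 5) in the short group (two-sided exact permutation p = 0.288). Each line came from its own dog and had 1 array in the comparison. A further line array and a tissue of the dog of long line 6 were kept out of it. The culture protocol allows both tumour cells and cryopreserved cultured cells and does not say which line was which.

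Osteosarcoma is a malignant tumour of bone-forming mesenchymal cells, and in large dogs it arises mostly in the long bones of the limbs and spreads to the lung. Survival after diagnosis varies widely between dogs given the same treatment. Expression in a cultured line reflects the tumour cells that grew out, their proliferation, their differentiation along the bone and cartilage lineages, and their responses to signals such as bone morphogenetic proteins and retinoic acid, without most of the stromal and immune cells of the tumour.

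All values are log2 of the deposited GCRMA intensity, and a difference is the mean of the long lines minus the mean of the short lines. The groups did not differ detectably in the median of the array (8.32 ± 0.0929 linear units in long lines and 8.28 ± 0.127 in short lines, exact permutation p = 0.580). The difference between 3′ and 5′ probe sets, which grows with RNA degradation, was 1.27 ± 0.546 against 1.16 ± 1.05 for actin (exact permutation p = 0.838) and 3.10 ± 0.264 against 2.90 ± 0.277 for GAPDH (p = 0.242, same exact test). These 3 measures and age made a family of 4 tests, with Benjamini-Hochberg adjusted p from 0.576 to 0.838, and the smallest p that 6 lines against 5 can give is 0.0043. Title prefix, a part of the sample titles that may mark a batch, split the lines into 1 long and 1 short line with prefix 1 and 5 long and 4 short lines with prefix 2. As for the lines' identity, the bone matrix genes COL1A1 (type I collagen) and SPARC (osteonectin) were over log2 12 in each of the 11 lines. IBSP (bone sialoprotein), a marker of mature osteoblasts, was over log2 5 in 0 of 11 lines, the osteoblast transcription factor RUNX2 and osteocalcin (BGLAP) in 1 each and alkaline phosphatase (ALPL) in 2.

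The lines did not sort by survival group across all genes. The median Pearson correlation across the 6797 genes tested was 0.882 over the 15 pairs within the long group, 0.895 over the 10 pairs within the short group and 0.893 over the 30 pairs between groups. The most similar line among the other 10 belonged to the same survival group for 3 of the 11 lines. Long line 1 and short line 1, the only lines with title prefix 1, were each other's nearest (r = 0.950). Long line 6 stood apart, with its highest correlation among the 11 lines at 0.865, to short line 5. Across the 15781 probe sets kept, rather than 1 per gene, the 2 line arrays of the dog of long line 6 correlated at 0.896. The second array was the nearest to long line 6 among all other arrays of the study, and the 2 arrays had different title prefixes. A correlation above 0.896 was found for 26 of the 55 pairs of the 11 lines, all from different dogs. Across the same probe sets, short line 2 and a line of another dog outside the comparison correlated at 0.970.

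No gene passed the test between long and short survival. With limma and Benjamini-Hochberg adjustment, 0 of 6797 genes had an adjusted p under 0.05, and the smallest adjusted p was 1.00. An unadjusted p under 0.05 was found for 144 genes (2.12%), 67 with the higher mean in long lines (0.986%) and 77 in short lines (1.13%). The differences were balanced, with the long mean higher in 50.9% of genes and the short mean in 49.1%, and a median over all genes of 0.01. A difference of at least 1 log2 unit was seen for 93 genes higher in long lines (1.37%) and 148 higher in short lines (2.18%), and 59 of these 241 had an unadjusted p under 0.05. The median SE of a difference was 0.332 and the 95% interval reached a median of 0.727 log2 units to each side. For 3642 genes (53.6%) the whole interval lay within 1 log2 unit of 0, and for the remaining genes the interval did not exclude a 2-fold difference in at least 1 direction.

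**Figure D1:**
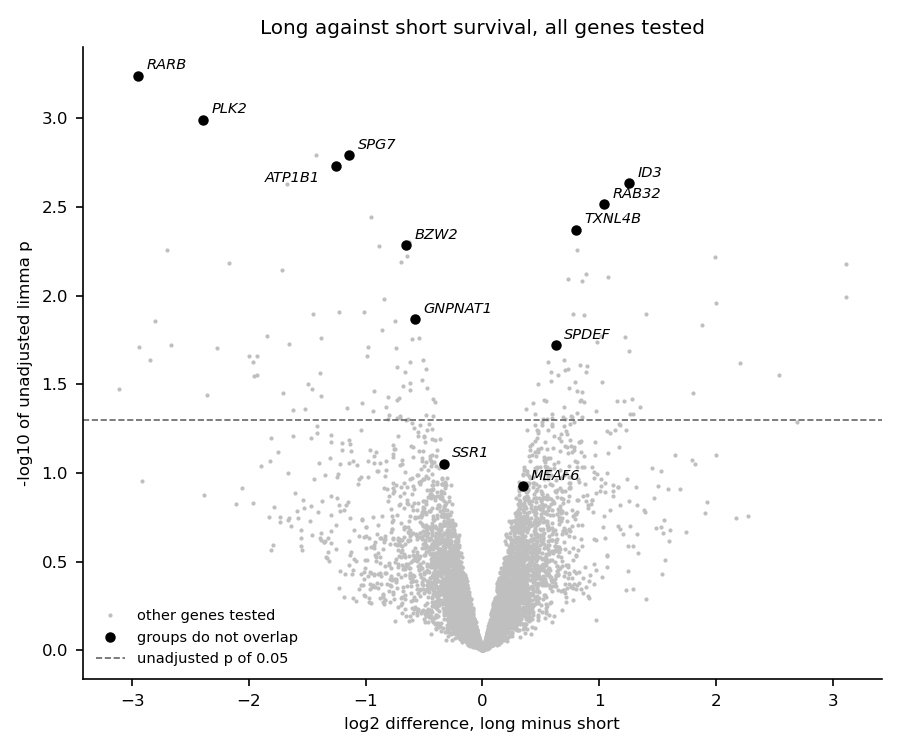
Each point is 1 of the 6797 genes tested, with the log2 difference (long minus short) on the x axis and -log10 of the unadjusted limma p on the y axis; the dashed line is p of 0.05. The 12 black points are the genes whose groups did not overlap, 5 to the right and 7 to the left, and none of them passed the adjusted threshold.

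The values of 12 genes did not overlap between the groups (0.177% of genes tested). ID3, RAB32, TXNL4B, MEAF6 and SPDEF were higher in all 6 long lines than in any short line (5 genes, 0.0736%). PLK2, ATP1B1, SPG7, BZW2, GNPNAT1, SSR1 and RARB were higher in all 5 short lines than in any long line (7 genes, 0.103%). Adjusted p was 1.00 for each of them in limma. Leaving out any 1 line gave 5 to 31 genes higher in long lines and 10 to 23 higher in short lines, as fewer lines separate more easily. Since full separation was the criterion, it is a description of these 11 lines, and the unadjusted p values below only give the size of a difference against its spread.

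**Figure D2:**
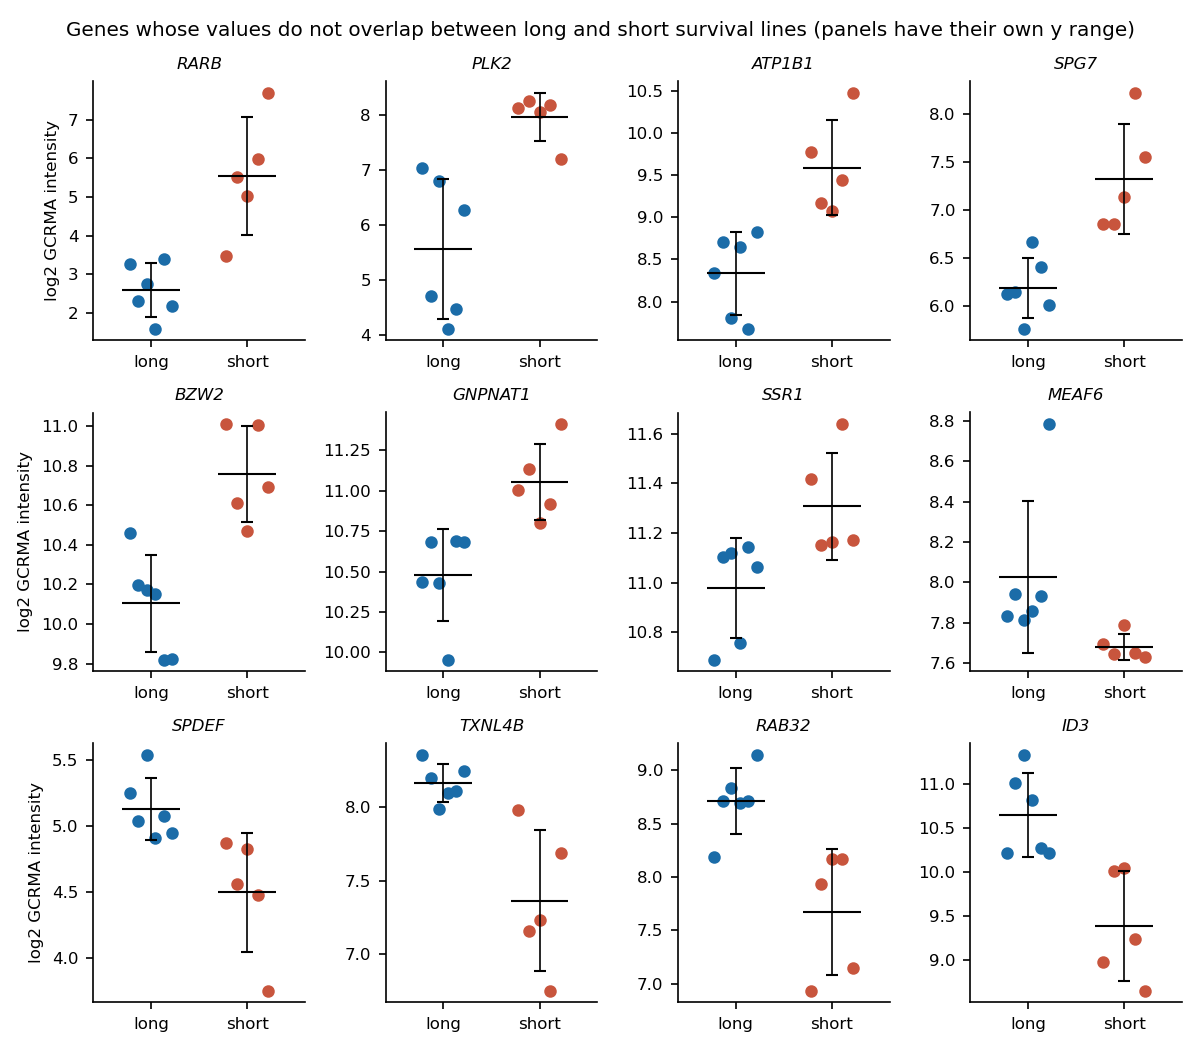
Log2 GCRMA intensity (y axis, with its own range in each panel) of the 12 genes that did not overlap, in the 6 long (blue) and 5 short (red) survival lines; the horizontal bar is the mean and the error bar 1 SD. The means of PLK2 differ by -2.39, the long lines of RARB lie at 1.59 to 3.40, below the filter limit of log2 5, and TXNL4B, SSR1 and BZW2 have groups that almost touch.

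ID3 encodes an inhibitor of DNA binding that holds basic helix-loop-helix transcription factors inactive and is a classic target of bone morphogenetic protein signalling. It stood at 10.22, 11.01, 11.32, 10.82, 10.27 and 10.21 in long lines 1 to 6 and at 8.97, 10.01, 10.04, 9.24 and 8.65 in short lines 1 to 5. The lowest long lines, 1, 5 and 6, were 0.17 or more above short lines 2 and 3, the highest of their group. The difference was 1.26 (SE 0.32, limma unadjusted p = 0.00233), a 2.39-fold higher mean in long lines. The other ID3 probe set also did not overlap, with a difference of 1.84.

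RAB32, a small GTPase of mitochondria and of the transport to lysosome-related organelles, was 8.19, 8.71, 8.83, 8.70, 8.71 and 9.14 in long lines 1 to 6 and 6.94, 7.93, 8.17, 8.17 and 7.15 in short lines 1 to 5. Its difference was 1.04 (SE 0.28, limma unadjusted p = 0.00306). Long line 1 and short lines 3 and 4 were only 0.02 apart, whereas short lines 1 and 5 were at least 1 log2 unit below every long line. All 3 RAB32 probe sets did not overlap, with differences of 1.04, 1.13 and 1.54.

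TXNL4B, a thioredoxin-like protein of the spliceosome, ranged from 7.99 to 8.35 in long lines and from 6.75 to 7.98 in short lines. Its difference was 0.80 (SE 0.23), but long line 3 lay only 0.00044 above short line 1. A second TXNL4B probe set above the filter gave 0.53 with overlap. MEAF6, a subunit of MYST-type histone acetyltransferase complexes, was 8.78 in long line 6 and 7.81 to 7.94 in the other long lines, against 7.63 to 7.79 in short lines. Its difference of 0.35 (SE 0.20) was 0.19 without long line 6. The epithelial transcription factor SPDEF stood at 4.90 to 5.54 in long lines and 3.75 to 4.87 in short lines. It was over log2 5 in 4 of 6 long and 0 of 5 short lines, so it entered the test only through the long group, and none of its other 4 probe sets passed the filter on low signal. The 5 genes thus had gaps of 0.17 or less between the groups, small beside the SE of each difference.

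PLK2, a polo-like kinase of centriole duplication and a stress-induced target of p53, had the largest difference among the 12 genes with a mean over log2 6 in the higher group. It stood at 8.12, 8.25, 8.05, 8.19 and 7.21 in short lines 1 to 5 and at 7.03, 4.71, 6.80, 4.12, 4.49 and 6.27 in long lines 1 to 6. Short lines 1 to 4 lay close together, while the long lines were spread from 4.12 to 7.03, and the groups came within 0.18 of each other. The difference was -2.39 (SE 0.55, 95% interval -3.60 to -1.19, limma unadjusted p = 0.00102). PLK2 was over log2 5 in 3 of 6 long lines and 5 of 5 short lines. The second PLK2 probe set gave -2.31 with overlap. Among the long lines the 3 lowest values belonged to lines 2, 4 and 5, which have the 3 highest survival labels.

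RARB, a nuclear receptor for retinoic acid, was 3.46, 5.51, 5.02, 5.98 and 7.68 in short lines 1 to 5 and 1.59 to 3.40 in long lines. It was over log2 5 in 4 of 5 short and 0 of 6 long lines, so it passed the filter on low signal only through the short group, and short line 1 lay 0.06 above the highest long line, at a level near background. The fitted difference was -2.95 (SE 0.63), taken against long lines that were all below log2 5, so its size is not comparable with those of the other genes. Its other 2 probe sets were over log2 5 in 0 of 11 lines.

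ATP1B1, the beta subunit of the sodium-potassium pump, was 9.77, 9.17, 9.07, 9.45 and 10.47 in short lines 1 to 5 and 7.68 to 8.82 in long lines. Its groups were 0.25 apart, the widest gap of the 12, with a difference of -1.25 (SE 0.31, limma unadjusted p = 0.00185). SPG7, the paraplegin subunit of a mitochondrial inner membrane protease, was 6.85, 6.85, 7.14, 8.22 and 7.55 in short lines 1 to 5 and 5.76 to 6.67 in long lines. Its difference was -1.14 (SE 0.28, limma unadjusted p = 0.00162). A second SPG7 probe set above the filter gave -0.72 with overlap.

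The remaining 3 genes were abundant in each line and differed by less than 1 log2 unit. BZW2, a regulator of translation initiation, was 10.47 to 11.01 in short lines and 9.82 to 10.46 in long lines (difference -0.65, SE 0.19). Its second probe set above the filter did not overlap either, with a difference of -0.80. GNPNAT1, an acetyltransferase of the hexosamine pathway that makes UDP-GlcNAc, was 10.80 to 11.41 in short lines and 9.96 to 10.69 in long lines (-0.57, SE 0.20). Its other probe sets gave -0.50 and -0.52 with overlap. SSR1, a subunit of the translocon-associated complex of the endoplasmic reticulum, was 11.15 to 11.64 in short lines and 10.69 to 11.14 in long lines (-0.33, SE 0.18). Its other probe sets gave -0.09 and -0.24 with overlap. For SSR1 the interval of the difference ran from -0.72 to 0.06 and, like that of MEAF6, included 0, although the groups did not overlap.

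Sex was unequal between the groups, so the differences of sex and of survival could be told apart only in part. With sex removed as a covariate, 2 of the 5 genes higher in long lines and 3 of the 7 higher in short lines still did not overlap. PLK2 was -2.51 between the 2 long and 4 short lines of females and -2.58 between the 4 long lines and 1 short line of males, and ID3 was 1.01 and 0.83. The sign within each sex follows from the lack of overlap and adds nothing to it.

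Samples outside the 11 lines did not repeat the pattern as a whole. The second line array of the dog of long line 6 lay on the long side of the midpoint between the groups for 5 of the 12 genes. For ID3 it was at 12.07, above every long line, and for RAB32 at 6.54, below every short line. For ATP1B1 this array was at 10.64, above each short line, although long line 6 of the same dog was at 8.82. Of 10 primary lines with other treatment labels, or none, and a survival label of at most 7.3, a median of 4 lay on the short side. The counts were 8 of 10 for BZW2, 7 for SPG7 and 6 for RAB32, and 2 of 10 for each of ID3, MEAF6 and PLK2. In 6 tumour tissues, 2 with a survival label of 12 or more and 4 below it, the direction was the same as in the lines for 7 of the 12 genes, and with groups of 2 and 4 this was not tested. PLK2 was higher in the 2 tissues of longer survival (9.65 and 8.22) than in the other 4 (6.63 to 8.16), the opposite of the lines. One of the 2 tissues came from the dog of long line 6. Neither of these 2 tissues had a treatment label, while most of the other 4 had the label SOC. Treatment was thus not matched here as it was in the lines. In bulk samples, fewer cells of a type and less RNA per cell cannot be told apart.

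**Figure D3:**
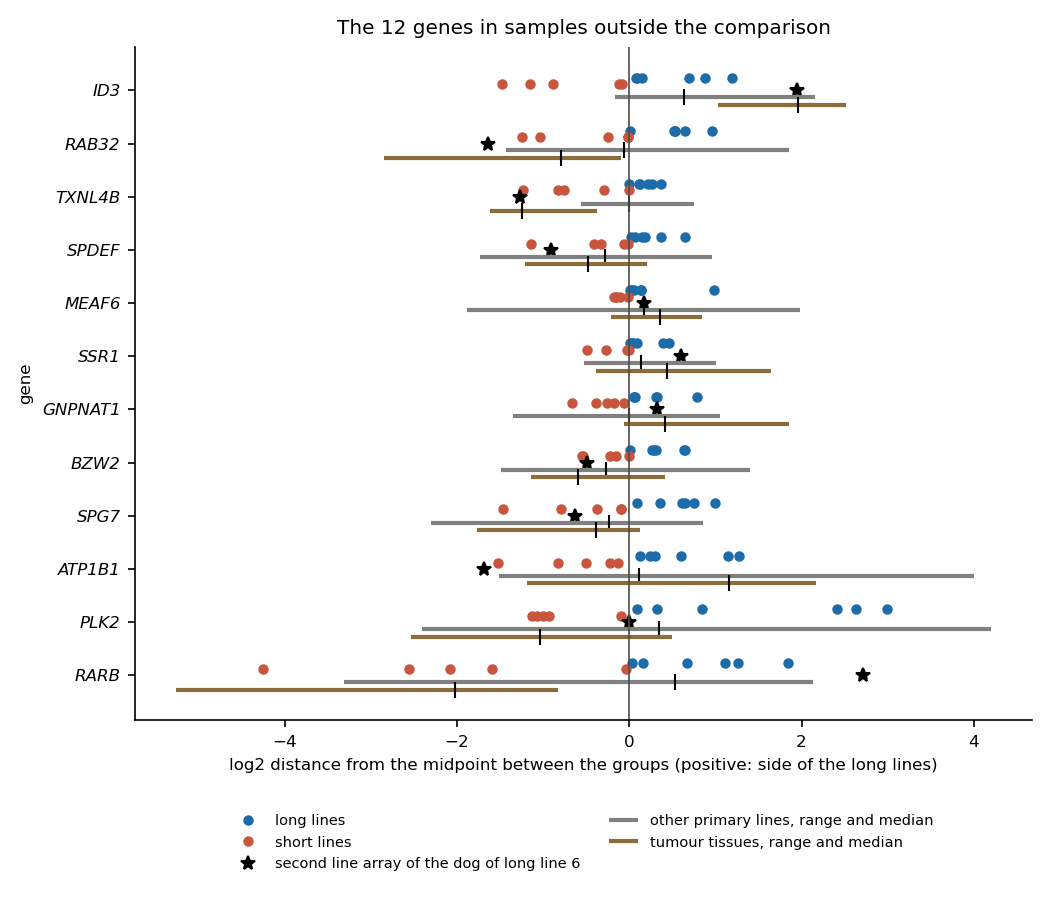
Distance in log2 units (x axis) of each sample from the midpoint between the groups, signed so that positive values lie on the side of the long lines, for the 12 genes (y axis): blue points are long lines, red points short lines, the star is the second line array of the dog of long line 6, and bars are the range and tick the median of the 13 other primary lines (grey) and 6 tissues (brown). The star lies on the long side for 5 of 12 genes, and the grey bars of the other lines cross the midpoint for each of the 12.

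Survival was also treated as a continuous label. Over log2 of the label, 0 genes passed at an adjusted p under 0.05 and 347 had an unadjusted p under 0.05 in limma. PLK2 was among the 5 genes with the smallest p, with a change of -1.12 (SE 0.22) per doubling of the label (limma unadjusted p = 0.000274, adjusted p = 0.373). The 4 other genes were the kinase STK26 (-1.65, SE 0.29), TRIM3 (0.45, SE 0.08), the anticoagulant protein S gene PROS1 (0.80, SE 0.15) and GAREM1 (-0.68, SE 0.13), each with an adjusted p of 0.373. With the limit moved to 15, which set 4 lines against 7, 0 genes passed and 344 had an unadjusted p under 0.05. The smallest adjusted p were those of EBF1, a transcription factor of mesenchymal and B-lineage cells (difference 2.11, SE 0.30, adjusted p = 0.110), and PLK2 (-2.76, SE 0.44, adjusted p = 0.158). That limit moved long lines 1 and 3, with the highest PLK2 values of the long group (7.03 and 6.80), to the lower group. PLK2 was named for its separation of these same lines by the same label, so neither fit is separate evidence for it.

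Genes of the G2 and M phases of the cell cycle had lower means in long lines throughout the list. All 20 tested members had the lower mean in long lines, with a median of -0.97 against 0.01 over all genes, and 0 of 20 passed the test or had an unadjusted p under 0.05. The members share a common regulation over the cell cycle, so that 20 equal signs are far fewer independent observations. Cyclin B2 (CCNB2) was 10.13, 8.54, 7.39, 6.92 and 10.34 in short lines 1 to 5 and 7.82, 5.26, 5.51, 7.47, 2.94 and 11.20 in long lines 1 to 6. The groups overlapped completely, because the highest and the lowest of the 11 values were both in long lines (difference -1.96, SE 1.26). The kinesin KIF23, which acts at the midbody in cytokinesis, gave -1.74 (SE 1.21). Averaged over the 20 genes, the level was 7.27, 5.58, 5.67, 6.50, 3.90 and 9.99 in long lines 1 to 6. In short lines 2 to 5 it was 7.35, 5.98, 5.96 and 9.12, and short line 1 lay just under short line 5. Without long line 6, the highest of all, the list median was -1.74, and without long line 5, the lowest, it was -0.46. The list of G1/S and replication genes had 19 of 21 members lower in long lines and a median of -0.31, led by RRM2, a ribonucleotide reductase subunit (-1.18, SE 1.27), and GINS1 of the replicative helicase (-0.99, SE 0.73). Its median was 0.10 in the female lines alone and 0.01 without long line 5.

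**Figure D4:**
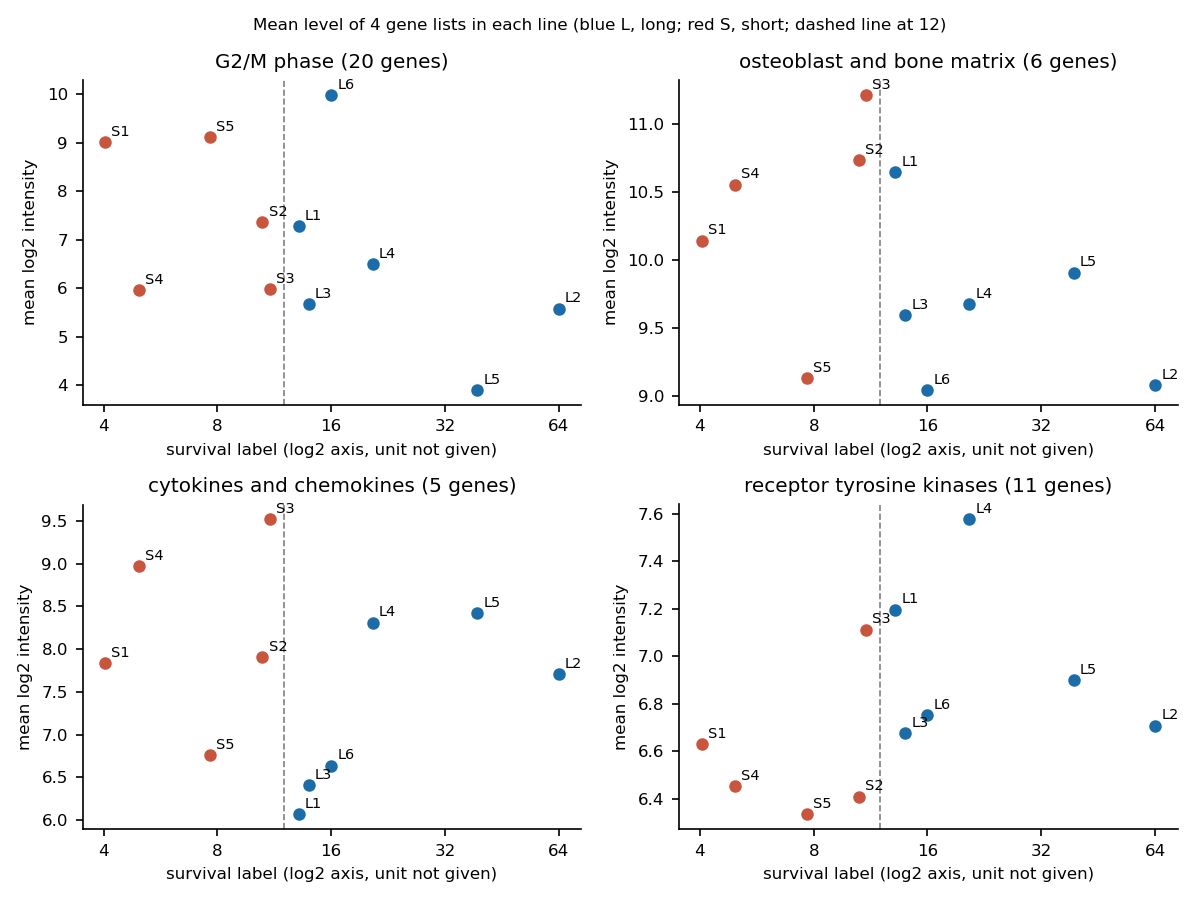
Mean log2 intensity of the tested genes of 4 lists (y axis) in each line against its survival label (x axis, log2 scale, unit not given); blue L marks long and red S short lines, numbered as in the text, and the dashed line is the limit of 12. The G2/M level of long line 6 (9.99) is the highest and that of long line 5 (3.90) the lowest, and the groups overlap in each panel.

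Lineage genes of bone and cartilage that passed the filter mostly had lower means in long lines, with 0 called. In the osteoblast and bone matrix list 5 of 6 tested genes had the lower mean in long lines and the median was -0.53. The array holds 15 genes of this list, and without a filter the median was -0.13. SPP1 (osteopontin), a secreted bone phosphoprotein, was 5.80, 9.01, 9.57, 6.62 and 3.27 in short lines 1 to 5 and 8.78, 3.64, 3.68, 3.67, 5.38 and 3.59 in long lines 1 to 6. It was high in short lines 2 and 3 and in long line 1 and near background in 4 long lines and in short line 5 (difference -2.06, SE 1.24). ENPP1, which makes the mineralisation inhibitor pyrophosphate, gave -1.14 (SE 0.61). In the cartilage list the 3 tested genes had the lower mean in long lines (median -0.97). The array holds 10 genes of this list, and without a filter the median was -0.46. HAPLN1, a link protein of hyaluronan and aggrecan, gave -1.20 (SE 0.60) and COMP, a cartilage matrix protein, -0.97 (SE 1.43). The proteoglycan aggrecan (ACAN) gave -0.93 (SE 0.39). ACAN was over log2 5 in 4 of the 11 lines, with means of 4.27 in long and 5.20 in short lines. It thus passed the filter on low signal mainly through the short group. The interstitial matrix list, in which 17 of 24 genes were lower in long lines, had a median of -0.11 that turned to 0.11 without long line 6. In that line the matrix protein THBS2 stood at 3.10, against 12.42 to 13.36 in the other long lines.

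In the list of bone morphogenetic protein and TGF-beta genes, which includes ID3, 8 of 16 members were higher and 8 lower in long lines (median -0.02). CHRDL1, a secreted antagonist of bone morphogenetic proteins, was 5.04, 7.59, 5.57, 6.18, 7.52 and 6.05 in long lines 1 to 6 and 3.90, 4.67, 5.92, 5.34 and 2.39 in short lines 1 to 5. It was lowest in short line 5, and the groups overlapped through short lines 3 and 4, which lay above long line 1 (difference 1.88, SE 0.66, limma unadjusted p = 0.0146). The ligand BMP4 was at 3.24 to 4.88 in long lines 1 to 5 and at 7.64 in long line 6, against 6.03 to 7.61 in short lines 2 to 5 and 3.48 in short line 1 (difference -1.75, SE 0.90). The BMP4 difference was 0.33 in females alone and -3.96 in males alone, with 1 short line. Among Wnt pathway genes (7 of 11 higher in long lines, median 0.17) the inhibitors WIF1 (-1.83, SE 1.27) and DKK1 (1.53, SE 1.13) pointed in opposite directions. In the IGF list (median 0.10) the binding protein IGFBP5 gave -1.36 (SE 1.11) and 0.26 in males alone. The binding protein IGFBP2 gave 0.98 (SE 2.26), and it turned to -0.39 without short line 1 and to -0.69 in females alone. IGFBP2 ranged from 2.78 to 13.14 in long lines and from 2.58 to 11.50 in short lines. The receptor IGF1R was 7.98 ± 1.05 (SD, n = 6) in long and 8.42 ± 0.76 (n = 5) in short lines.

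Receptor tyrosine kinases had the highest median towards long lines among the lists with at least 3 tested genes, 0.70, with 8 of 11 members higher there and 0 of 11 with an unadjusted p under 0.05. FLT1, a receptor of VEGF, was 8.50, 8.21 and 7.76 in long lines 2, 3 and 6 and 5.18 to 5.50 in the other 3, against 8.15 in short line 2 and 4.08 to 6.03 in the other short lines (difference 1.16, SE 0.85). In males alone, with 1 short line, the FLT1 difference was -1.30. AXL, a receptor of GAS6, was highest in long line 1 at 9.09 and lowest in short line 4 at 5.03 (0.93, SE 0.60). The list median was 0.07 in female lines alone and 0.24 without long line 4. In the adhesion list (10 of 18 higher in long lines, median 0.04), VCAM1, a ligand of leukocyte integrins, was 8.57 to 9.25 in short lines 1, 2, 3 and 5 and 3.86 in short line 4. In long lines 1 to 6 it was 4.74, 3.33, 3.94, 5.94, 8.21 and 3.86. The difference was -2.85 (SE 1.09, limma unadjusted p = 0.0231), and 1 line of each group, long line 5 and short line 4, crossed to the level of the other. ALCAM, another adhesion molecule, gave 1.59 (SE 0.95). Among position genes, which keep the memory of a cell's place along the body or limb, PBX3 was 7.60 to 8.43 in long lines and 5.90, 6.02, 8.63, 7.08 and 6.39 in short lines 1 to 5. Short line 3 had the highest value of all 11 (difference 1.22, SE 0.44, limma unadjusted p = 0.0171).

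Of the 5 tested cytokine and chemokine genes 3 had the lower and 2 the higher mean in long lines, with 0 called and 0 at an unadjusted p under 0.05. IL6, a cytokine of inflammation and bone resorption, was over log2 5 in short lines 3, 4 and 5 only, at 6.61, 7.80 and 6.35, and at 1.92 to 4.71 in the other 8 lines (difference -1.90, SE 1.03). It was over log2 5 in 0 of 6 long lines and so passed the filter on low signal only through the short group. In males alone, with 1 short line, its difference was 1.13. The prostaglandin synthase gene PTGS2 was 9.99 to 11.18 in short lines 1 to 4, 5.32 in short line 5 and 4.52 to 10.01 in long lines (-1.78, SE 1.17). The chemokine CCL2 gave -1.40 (SE 0.95), the alarmin IL33 0.22 (SE 1.06) and the chemokine receptor ACKR3 0.17 (SE 0.67). The median over the 5 genes, IL6 among them, was -1.40, and it was 0.92 with the limit at 15. Of the interferon-stimulated genes, 6 of 8 were lower in long lines (median -0.24). IFI6, one of these, was 6.72 to 8.59 in short lines 2 to 5 and 5.07 in short line 1, against 3.98 to 6.14 in 5 long lines and 7.79 in long line 5 (-1.93, SE 0.77, limma unadjusted p = 0.0281). The protease inhibitor TIMP1 was abundant in each line and lower in long lines by a small margin (13.16 ± 0.46 against 13.79 ± 0.31, difference -0.62, limma unadjusted p = 0.0311). Of 15 tested genes of the protease and inhibitor list, it was the only 1 with an unadjusted p under 0.05. In that list 6 genes were higher in long lines and the median was -0.10.

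Lists of genes tied to chemotherapy response had medians between -0.27 and 0.19. The 95% intervals of some efflux genes were wide, as for ABCB4 (-2.21 to 2.13), and did not exclude larger differences. In the drug efflux list 6 of 6 tested members had the lower mean in long lines, with a median of -0.27 and 0 at an unadjusted p under 0.05. The median was -0.59 without short line 5 and -0.0041 with breed class as a covariate. ABCB1, the P-glycoprotein pump, was 4.68, 6.51, 4.90, 8.23, 4.44 and 3.27 in long lines 1 to 6 and 7.62, 6.67, 5.91, 6.74 and 3.66 in short lines 1 to 5. Long line 4 had the highest value and the difference was -0.78 (SE 0.89, 95% interval -2.74 to 1.17). ABCC5 gave -0.69 (SE 0.50), and MVP, ABCC1, ABCG2 and ABCB4 gave -0.30 to -0.04. The sign turned on leaving out 1 line in 6 of 11 cases for ABCB4 and in 2 of 11 for each of ABCC1 and ABCG2. DNA damage checkpoint and repair genes had a median of -0.01 (6 of 13 higher in long lines), and excision and mismatch repair genes 0.11 (9 of 14). The list of p53 targets had a median of 0.09 with 4 of 7 higher in long lines. The cell cycle inhibitor CDKN1A was 11.81 ± 0.61 in long and 11.60 ± 1.38 in short lines, and MDM2, the ligase that degrades p53, was 11.72 ± 0.31 and 11.74 ± 0.14, with a 95% interval of the difference from -0.43 to 0.41. Apoptosis regulators had a median of 0.19, with cytochrome c (CYCS) at -0.56 (SE 0.44) and the pro-apoptotic BAD at 0.35 (SE 0.32).

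Genes known from osteosarcoma genomes had a median of -0.04, with 7 of 16 higher in long lines, and several were set apart in single lines. MTAP, a methionine salvage enzyme whose gene lies beside CDKN2A, was at 1.67 in long line 6 and at 8.79 to 10.56 in the other 10 lines. Its difference of -1.01 (SE 1.43) became 0.42 without long line 6. The chromatin remodeller ATRX was 5.45 in long line 1 and 6.12 in short line 1, the lines with title prefix 1, and 9.80 to 10.57 in the other 9. MYC was 8.18 to 8.46 in long lines 1 to 5 and 9.60 in long line 6, against 8.04 to 9.68 in short lines (difference -0.31, SE 0.33). CDK4 (0.13, SE 0.31), CCND1 (0.15, SE 0.41) and the membrane linker ezrin (EZR, -0.23, SE 0.21) had 95% intervals within about 1 log2 unit of 0.

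**Figure D5:**
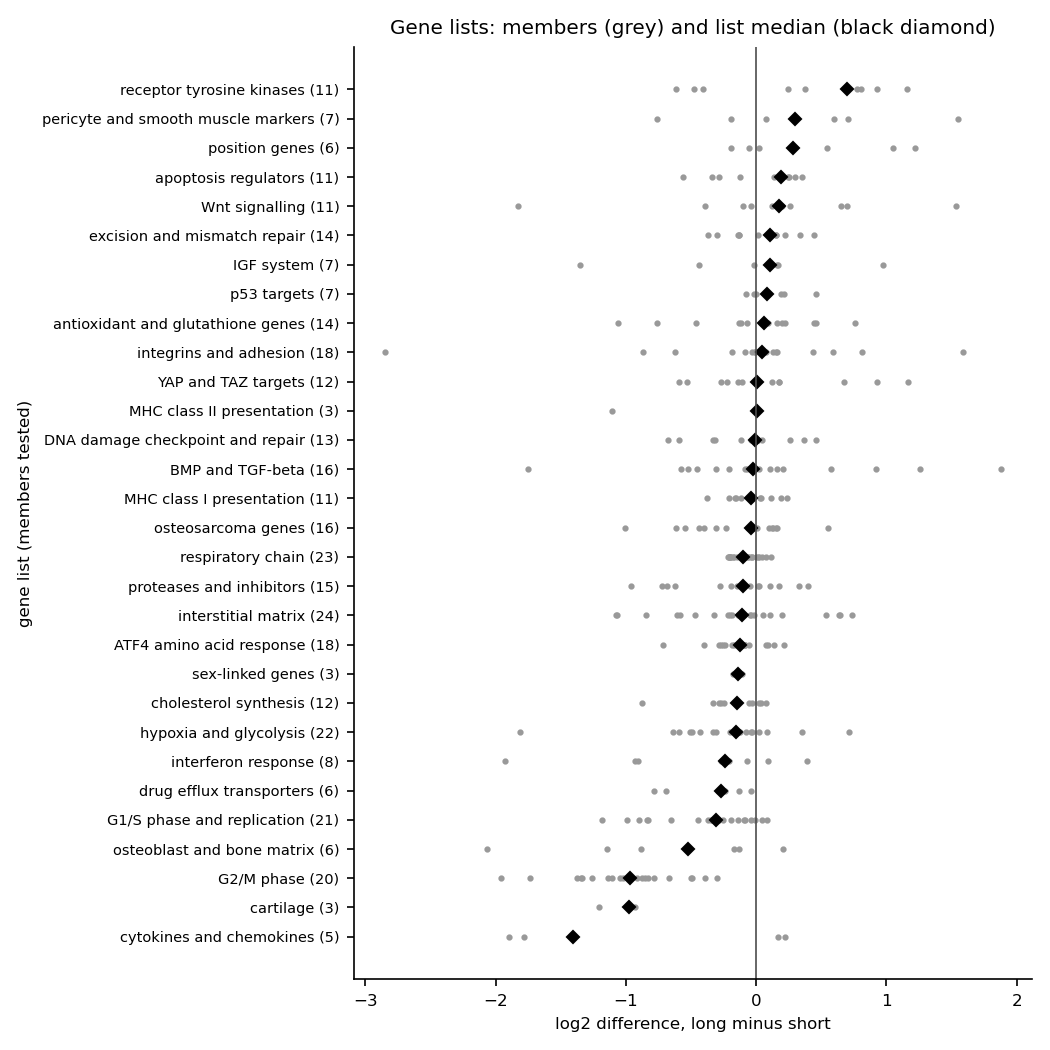
Log2 difference, long minus short (x axis), of each tested member (grey points) and the list median (black diamond) for the lists with at least 3 tested genes (y axis, number tested in parentheses). Cytokines (-1.40), cartilage (-0.97) and G2/M genes (-0.97) have the lowest medians and receptor tyrosine kinases (0.70) the highest. The cytokine median rests on 5 genes, and 1 of them, IL6, passed the filter on low signal only through the short group.

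Metabolic lists lay close to the median of all genes. Hypoxia and glycolysis genes had a median of -0.15 with 18 of 22 lower in long lines, and the largest difference was that of carbonic anhydrase CA9 (-1.81, SE 1.57). This gene spanned 2.66 to 11.44 in long lines and 5.99 to 11.59 in short lines. The median without long line 6 was 0.06. Cholesterol synthesis had -0.15 (9 of 12 lower), the respiratory chain -0.10 (18 of 23 lower, with every member between -0.22 and 0.12) and the amino acid response -0.12 (14 of 18 lower). Antioxidant genes (0.06), targets of YAP and TAZ (0.01) and class I antigen presentation (-0.04) had medians near 0.

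Markers of T and NK cells, macrophages, red cells and epithelium were mostly near background in both groups, while some endothelial, muscle and adipocyte genes were not. Of 11 T and NK cell markers on the array 0 were over log2 5 in any line, and the mean level over the list was 2.20 to 2.48 in long and 2.28 to 2.48 in short lines. Of 14 macrophage markers 1 was over log2 5, CD68, in 2 lines (list mean 2.37 to 2.66 and 2.43 to 2.74). Of 12 endothelial markers ENG and ERG were over log2 5 in 10 and 9 lines and PECAM1, CDH5 and the other 8 in none (2.96 to 3.50 and 3.26 to 3.43). Erythroid markers were over log2 5 for 0 of 2, and epithelial genes for 2 of 13, in 1 line each. Smooth muscle and pericyte genes were expressed widely, with ACTA2 at 11.42 to 14.24 over the 11 lines, and 7 of 12 passed the filter, 5 of them higher in long lines (median 0.30). The calponin CNN1 gave 1.55 (SE 1.18). Of 8 skeletal muscle markers on the array ACTA1, the skeletal muscle actin, was over log2 5 in each of the 11 lines (10.18 ± 1.57 in long and 9.44 ± 1.32 in short lines), and MYOD1, MYOG and the other 5 in none. Of 8 adipocyte markers LEP was over log2 5 in 3 lines, with a highest value of 7.71, and FABP4 and LPL in 1 line each.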

How the data were processed

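Expression was measured in 34 samples on Affymetrix Canine_2 arrays, and 11 primary lines were compared. The deposited intensity values, 1 per probe set and array, are GCRMA output of the authors, per the submitters' processing notes. The sources used here give neither its version nor its settings. Intensities were linear. They were floored at 1, which changed 0 values, and log2 transformed. Arrays have no read depth, and their number limits the precision.

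The arrays hold 43035 probe sets, of which 175 controls were dropped. In the platform annotation 29254 had 1 symbol, 439 had several and 13167 were absent. Through gene identifiers 27680 matched the RefSeq gene table, with 0 symbols changed. Probe sets over log2 5 on at least 3 of the 11 arrays were kept (15781, of which 11973 had 1 symbol). Each of 6797 genes was represented by its brightest probe set over the 11 lines.

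Groups came from the treatment and survival labels. Lines came from different dogs, with 1 array each. Differences were tested with limma 3.58.1 (lmFit and eBayes, R 4.3.3) with Benjamini-Hochberg adjustment over all genes, and called at an adjusted p under 0.05. Intervals are at 95%. Groups did not overlap where the lowest value of one lay above the highest of the other. The 37 gene lists were described by counts and medians. Single measures per line were compared with two-sided exact permutation tests. The limma step was tested on simulated data with known changes. The members and lists were chosen with earlier results of these data known. Genes were named if called, if the groups did not overlap and the higher mean was over log2 6 (up to 12 per direction), or if they were among the 2 members of a list with the largest absolute difference. Members of the osteosarcoma, p53, efflux, IGF and sex-linked lists could be named too. RARB, SPDEF, ACAN, TIMP1, STK26, TRIM3, PROS1, GAREM1, EBF1 and the cell type markers given are named outside this rule, a choice made once their values were known. Alternatives covered covariates, subsets of lines, filters, normalization, scale, the choice of probe set and the survival limit.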

Additional observations from a re-analysis of the deposited data

Results flagged for a closer look

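For 103 named genes, each group was searched for a line far from the rest by Dixon's criterion, which chance meets in about 1 in 20 groups. Of 206 groups, 20 held such a line. Long line 6 was the line in 9 of them: MTAP at 1.67 (up to 10.53 in the other long lines), THBS2 at 3.10 (12.42 to 13.36), DDIT4 at 6.11 (8.76 to 10.10), CARS1 at 7.70 (9.27 to 9.98), BMP4 at 7.64 (3.24 to 4.88), MYC at 9.60 (8.18 to 8.46), MEAF6 at 8.78 (7.81 to 7.94) and DDX3X at 12.87 (11.97 to 12.24). The ninth was PSME2 of the proteasome activator, at 10.43 (9.43 to 9.80).

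Short line 5 was apart in its group for PLK2 at 7.21 (other short lines 8.05 to 8.25), PTGS2 at 5.32 (9.99 to 11.18), the phospholipid transporter ABCB4 at 5.04 (7.79 to 8.82) and PSME2 at 11.14 (9.68 to 10.09). ATRX was low in long line 1, at 5.45 (9.80 to 10.57), and in short line 1, at 6.12 (9.97 to 10.39), and these are the lines with title prefix 1. SPP1 was high in long line 1, at 8.78 (3.59 to 5.38). VCAM1 was low in short line 4, at 3.86 (8.57 to 9.25), the repair gene XPA in short line 3, at 4.58 (6.53 to 7.12), and endoglin (ENG) in short line 2, at 5.68 (7.42 to 8.08). GNPNAT1 was low in long line 4, at 9.96 (10.43 to 10.69).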

How the results depend on the processing

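The count of called genes was 0 under each of 30 alternatives, with 64 to 347 genes at an unadjusted p under 0.05 in limma and a smallest adjusted p of 0.110. Counts of genes that did not overlap moved more (5 higher in long and 7 higher in short lines in the comparison as reported). With a covariate removed they were 11 and 13 (sex), 10 and 22 (title prefix), 37 and 31 (breed class) and 41 and 22 (age). Fewer lines make full separation easier by construction: 39 and 36 in title prefix 2 alone, 282 and 222 in females, 899 and 991 in males, and 20 and 35 without long line 6 and short line 5, a subset chosen after seeing the data. Leaving out each line in turn gave 5 (without short line 5) to 31 (without long line 1) and 10 (without long line 3) to 23 (without long line 6). With the limit at 15 the counts were 35 and 13, sharing 1 and 1 with the reported genes. Without a filter they were 15 and 20. With both line arrays of 1 dog averaged, 3 genes were higher in long lines, and with quantile normalization 2. The 12 genes kept their direction under the alternatives that gave them a value, which the way they were chosen partly fixes. PLK2 did not overlap in 27 of 27, which its choice also partly fixes. Many of these alternatives only dropped lines from groups that were already apart. The medians of 22 of 30 gene lists changed sign under at least 1 alternative, and those of the G2/M (-1.74 to -0.46), efflux (-0.68 to -0.0041), osteoblast, cartilage, receptor tyrosine kinase, interferon, respiratory chain and position lists did not. With 6 and 5 arrays, the 95% interval lay within 1 log2 unit of 0 for 53.6% of genes.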
